A study of Mus musculus with 4 samples.

Results

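Of 10 SOX genes described here, 5 had a listed region in a DNase-seq table of lymphoid tissue inducer (LTi) cells. The share over all protein-coding genes was 55.2%. The 5 genes held 8 regions of 16584 in all. A region that passed the threshold given below was found at 4 of the 10, and the share of all genes with one is not given here. The genes are Sox4, Sox11 and Sox12 (group C of the family), Sox5, Sox6 and Sox13 (group D), Sox8 and Sox9 (group E), and Sox7 and Sox18 (group F). DNase-seq sequences DNA freed by the nuclease DNase I, which cuts where chromatin is open, and the authors' regions, called islands, are runs of enriched windows of 200 bp. An island belonged to a SOX gene when the nearest end of a protein-coding gene, within 50 kb, was an end of that gene, or when the island lay in its gene body. Coordinates are 1-based positions of build mm10.

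The cells were sorted from Peyer's patches of C57BL/6 mice in 2 groups of 2 libraries. Mice of the Tcf7-KO group were Tcf7fl/fl, with a Cre recombinase that acts on floxed Tcf7, the gene for TCF-1. The control mice were Tcf7+/+, and their labels name no Cre. The Cre is not limited to LTi cells. Each library held 300 cells that were positive for CD127 and CCR6 and negative for lineage markers, KLRG1, NK1.1 and NKp46, and the age of the mice is not given in the sources used here. Of 14 LTi marker genes, 13 had an island, beside 55.2% of all protein-coding genes. Ccr6, the gene for a receptor of the sort, had none.

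SOX proteins are transcription factors that bind DNA through a high mobility group (HMG) box, a domain that they share with TCF-1 and its relatives and that bends the DNA it binds. Sox4 acts in early B and T cell development and, together with Sox13, in the IL-17-producing branch of mouse gamma-delta T cells. Sox5 and Sox6 act together in cartilage formation, and Sox7 and Sox18 in blood vessel endothelium. Sox8 and Sox9 act in glia, cartilage and testis, and Sox9 also in intestinal crypts.

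Each island has a peak-side read count and a control-side read count, and no label or header ties either to a genotype. Tcf7-KO and control mice are therefore not compared, and there are no values per library and no replicates. The table holds 425134 peak-side and 645087 control-side reads in islands. In such bulk libraries, fewer cells with an open site and less opening per cell cannot be told apart. A fold here is peak-side reads over control-side reads that were first multiplied by 0.345, the factor behind the authors' deposited fold. Its 95% interval is the exact Clopper-Pearson interval of the 2 read counts, which covers counting error only. An island counts as called at an FDR under 0.05 in the authors' deposited table, which 82.3% of all islands reached. No island of the table has under 8 peak-side reads, and closed chromatin cannot be read from the lack of an island.

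The promoters of group C are shown because those of Sox4 and Sox12 lie in an island of the table and that of Sox11 does not, while all 3 hold CpG dinucleotides, which are printed in capitals. Each run gives the 250 bases before the transcript start, 5′ to 3′ on the minus strand of GRCm38.p6, the assembly of mm10, from RefSeq. The Sox4 window lies at chr13:28953700-28953949 and the Sox12 window at chr2:152398047-152398296, and both lie inside an island, called at Sox4 and not called at Sox12. The Sox11 window lies at chr12:27342719-27342968, and the nearest island was 870.9 kb away.

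Sox4: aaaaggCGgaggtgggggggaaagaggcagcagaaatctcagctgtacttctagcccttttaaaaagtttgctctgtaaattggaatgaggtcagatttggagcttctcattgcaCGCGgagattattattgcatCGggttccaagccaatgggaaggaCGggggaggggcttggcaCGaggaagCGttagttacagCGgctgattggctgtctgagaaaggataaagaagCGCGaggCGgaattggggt
Sox12: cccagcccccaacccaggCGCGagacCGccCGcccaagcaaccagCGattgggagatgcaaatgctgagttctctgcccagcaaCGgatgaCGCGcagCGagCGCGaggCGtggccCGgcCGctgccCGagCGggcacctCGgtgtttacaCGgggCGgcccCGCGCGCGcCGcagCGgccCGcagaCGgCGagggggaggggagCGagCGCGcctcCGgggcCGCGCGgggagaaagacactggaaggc
Sox11: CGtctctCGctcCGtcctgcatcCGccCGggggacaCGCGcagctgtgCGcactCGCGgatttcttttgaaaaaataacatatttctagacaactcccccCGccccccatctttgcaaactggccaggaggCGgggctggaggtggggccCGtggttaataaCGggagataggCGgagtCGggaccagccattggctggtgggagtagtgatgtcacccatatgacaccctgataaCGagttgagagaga

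Group C gave the most reads. Its 3 islands held 93 of the 152 peak-side reads of all 8 (61.2%). Sox4, a transcriptional activator with a role in lymphocyte progenitors, is a gene of 4.78 kb on chromosome 13 (28948919 to 28953699) whose nearest neighbour, Cdkal1, lies 238.0 kb away. The island over its start (28950201 to 28954200) was 4000 bp wide, covered 3499 bp of the gene and ran 501 bp beyond the start. It held 38 peak-side and 66 control-side reads, which put it above 87.6% of all islands on the peak side, with a fold of 1.67 (1.09 to 2.53). It was called, with an FDR of 0.00246 in the authors' deposited table. The second Sox4 island (28957601 to 28960600) began 3.90 kb upstream of the start and had 23 peak-side and 65 control-side reads. Its fold was 1.03 (0.609 to 1.67), and its FDR of 0.404 in the authors' deposited table did not pass. The pair had nearly as many control-side reads each, while the peak side was lower at the upstream island, and the intervals of the 2 folds overlap.

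Sox12, which shares a C-terminal activation domain with Sox4 and Sox11, had 1 island. The gene lies on chromosome 2 (152393611 to 152398046). Its island (152395201 to 152399800) was 4600 bp wide, wider than 96.6% of all islands, covered 2846 bp of the gene and ran 1754 bp beyond the start. It held 32 peak-side and 83 control-side reads at a fold of 1.12 (0.719 to 1.70), and the FDR of 0.240 in the authors' deposited table did not pass. A fold below that of Sox12 occurred in 3.50% of all islands, and one below that of the upstream Sox4 island in 1.96%. Among 3971 islands with 23 to 38 peak-side reads, the range of these 3 islands, folds had a median of 1.91 with an interquartile range of 1.59 to 2.30, and 89.0% were called, beside 1 of 3 in group C. The islands over the starts of Sox4 and Sox12 were also among the 1118 islands (6.74% of all) of 4 kb or more, which had a median fold of 1.89. Per length, the 2 Sox4 islands held 9.5 and 7.67 peak-side reads per kb and the Sox12 island 6.96. These densities were below the median of 10.6 over all islands.

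Sox11, the third gene of group C and a regulator of neuronal development, had no island. It lies on chromosome 12 (27334268 to 27342718) with 854.4 kb to its nearest neighbour, Cmpk2. The nearest island was 862.5 kb away from the gene and was assigned to Cmpk2.

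**Figure D1:**
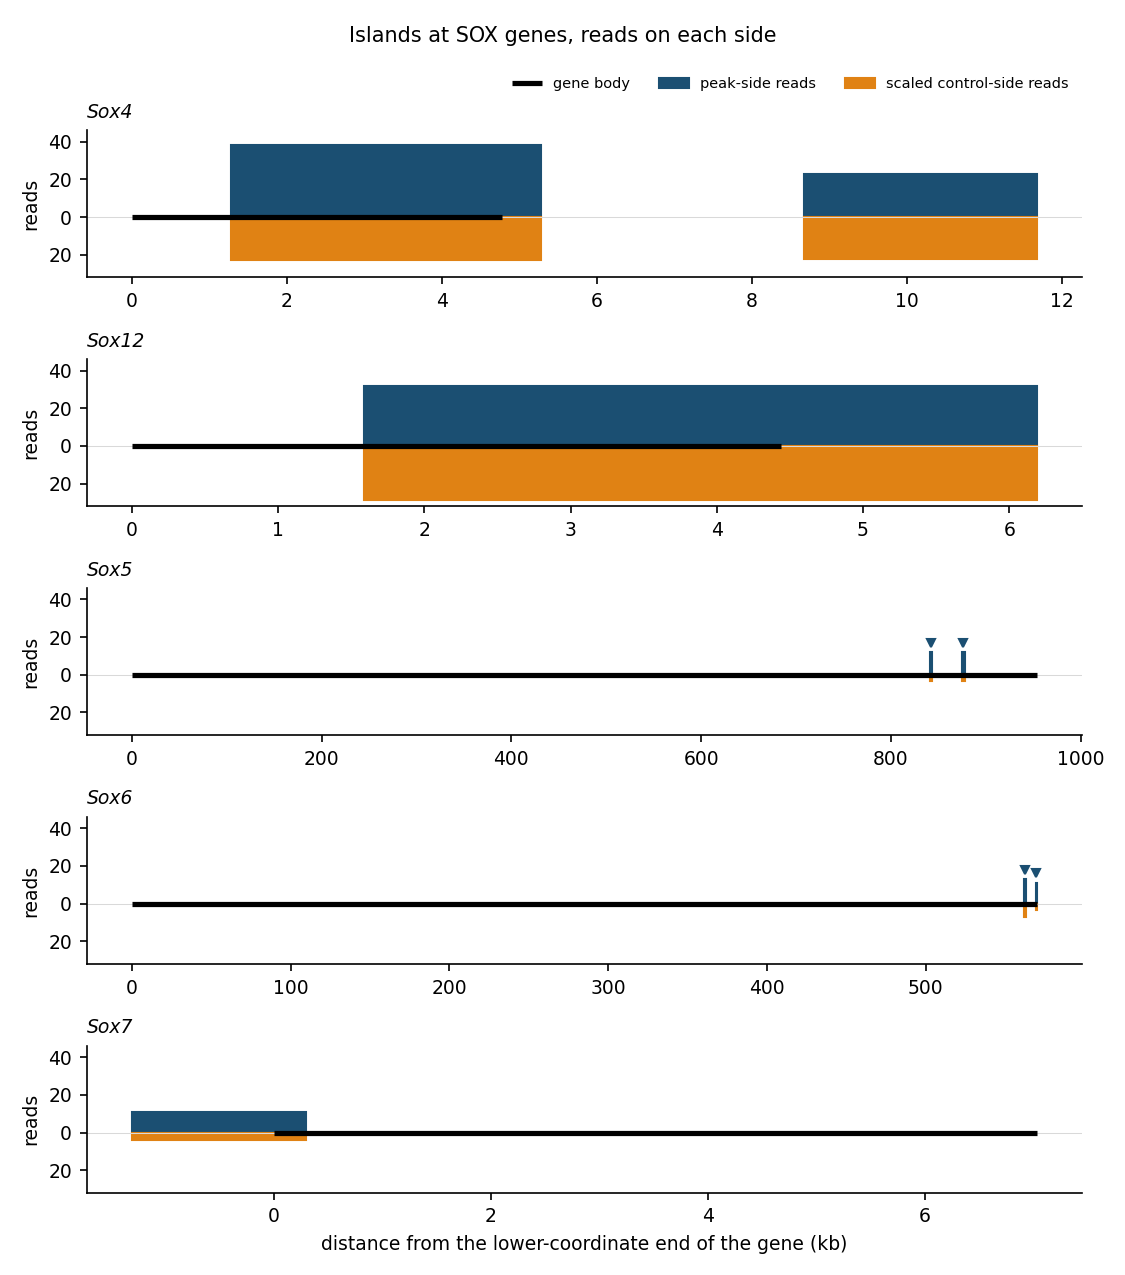
Reads per island (y axis) against distance from the lower-coordinate end of the gene (x axis, kb, a scale of its own in each panel) for the 5 SOX genes with an island, with peak-side reads drawn upward and scaled control-side reads downward, the black line marking the gene body and triangles pointing to islands that are thin at the scale of their panel. The islands of Sox4 and Sox12 are 3000 to 4600 bp wide, hold 23 to 38 peak-side reads and lie at and beyond the gene start. Those of Sox5 and Sox6 hold 11 to 13 peak-side reads, are 400 to 2600 bp wide and lie toward the upper-coordinate end of long genes.

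Group D had islands at Sox5 and Sox6 and none at Sox13. The SoxD proteins carry a coiled coil with which they pair and no activation or repression domain of their own. Sox5, which acts with Maf in mouse T cells that make IL-17, spans 953.9 kb of chromosome 6 (143828425 to 144782287). Its first island (144670201 to 144671400) held 12 peak-side and 10 control-side reads, at a fold of 3.48 (1.38 to 8.99). Its second (144703601 to 144706200) held 12 peak-side and 9 control-side reads, at a fold of 3.87 (1.5 to 10.4). Both were called in the authors' deposited table, with FDR values of 2.30e-04 and 9.98e-05. They lay within the gene, 110.9 and 76.1 kb from its upper-coordinate end, the side where it starts, since the promoter table puts Sox5 on the minus strand. They are members by lying in the gene body and not by their distance from a gene end. The promoter window that the RefSeq table gives for Sox5 lies deeper in the gene. The island nearest to that window, 572.1 kb away, lies outside the gene and is neither of these Sox5 islands, which are farther from it.

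Sox6, a repressor of embryonic globin genes in red cell precursors, spans 569.9 kb of chromosome 7 (115470872 to 116040776) on the minus strand. The island at its upper-coordinate end, the side where it starts, was the narrowest of the 8 with 400 bp (116040201 to 116040600). It held 11 peak-side and 9 control-side reads, at a fold of 3.55 (1.34 to 9.68), with an FDR of 3.19e-04 in the authors' deposited table. Per length it was the densest of the 8, with 27.5 peak-side reads per kb, above 92.7% of all islands. The other 7 had 4.62 to 10.8 peak-side reads per kb. Since no island of the table has under 8 peak-side reads, a width of 400 bp by itself sets a high floor for this density. The second Sox6 island (116033001 to 116034200), 6.58 kb inside the same end, had 13 peak-side and 20 control-side reads. Its fold was 1.89 (0.862 to 3.98), and its FDR of 0.0161 in the authors' deposited table passed although the counting interval reaches below 1.

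Sox13, whose protein can bind TCF-1 and which marks mouse IL-17-producing gamma-delta T cells, had no island. The gene lies on chromosome 1 (133382300 to 133424459), and no island at all lay within 50 kb of it. The nearest was 143.9 kb away, had 10 peak-side and 7 control-side reads and was assigned to Plekha6.

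Pooled over its islands, group D had a higher fold than group C, while single islands of the groups overlapped. The 4 islands of group D held 48 reads on each side, at a pooled fold of 2.90 (1.90 to 4.42), and the 3 of group C held 93 peak-side and 214 control-side reads, at a pooled fold of 1.26 (0.977 to 1.62). The second Sox6 island, at 1.89 (0.862 to 3.98), and the island over the Sox4 start, at 1.67 (1.09 to 2.53), have intervals that overlap. The intervals hold no replicate error, the groups were set side by side after their values were seen, and the difference was not tested. The ratio of the pooled folds does not depend on the scaling of the control side, which is 1 factor for all islands. In group D all 4 islands were called and in group C 1 of 3. Reads differed in the same comparison, with 11 to 13 per island on the peak side in group D and 23 to 38 in group C, and islands of 11 to 13 peak-side reads had a median fold of 2.22 (interquartile range 1.64 to 3.14) over the whole table. The part of read number in the difference was not tested.

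**Figure D2:**
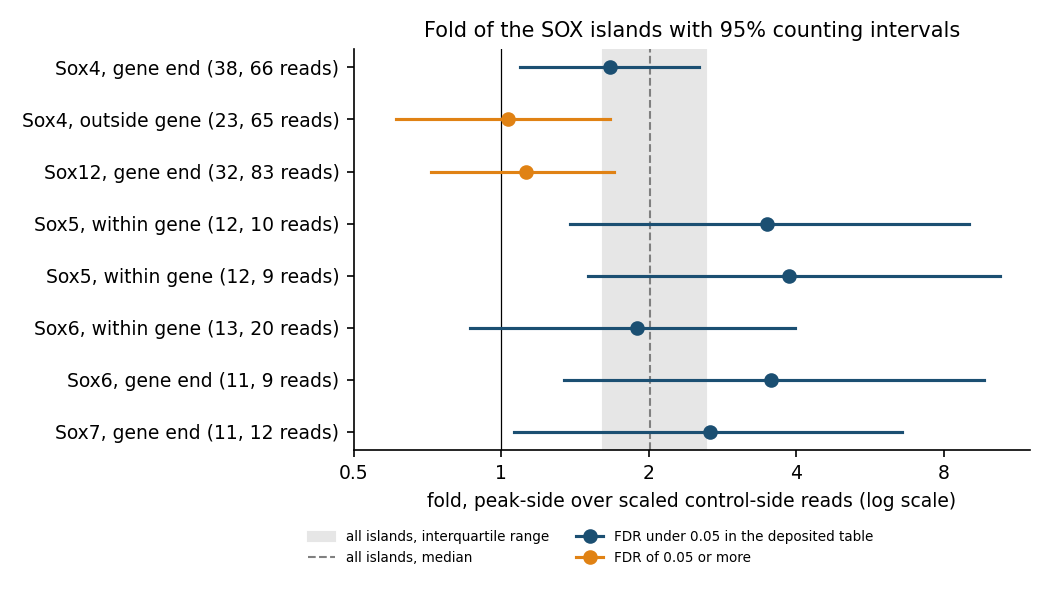
Fold of each SOX island (x axis, peak-side over scaled control-side reads, log scale) with its 95% counting interval, 1 row per island with its peak-side and control-side reads, above the interquartile range (band, 1.61 to 2.62) and median (dashed, 2.01) of all islands. The upstream Sox4 island and the Sox12 island sit at 1.03 and 1.12, both left of the band, and the intervals of the islands with 11 to 13 reads are wide.

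Group F had 1 island, at Sox7. Sox7 and Sox18 encode factors of endothelial development. The Sox7 island (chromosome 14, 63942401 to 63944000) covered the lower-coordinate end of the gene (63943706 to 63950732) and had 11 peak-side and 12 control-side reads, a fold of 2.66 (1.06 to 6.58) and an FDR of 0.00247 in the authors' deposited table. Sox18 (chromosome 2, 181669837 to 181671640) had no island of its own. Islands of its neighbours Gm29797, Tcea2 and Rgs19 lay 9.24, 8.16 and 21.6 kb away, with 17, 12 and 13 peak-side reads. Of 10 endothelial marker genes, 5 had an island, beside 55.2% of all protein-coding genes, with 0 to 41 peak-side reads per gene. Pecam1 (41 peak-side and 45 control-side reads over 3 islands), Vwf, Esam, Erg and Flt1 each had a called island, and Cdh5, Kdr, Tie1, Tek and Emcn had none. The part of endothelial cells in the Sox7 island was not tested.

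Group E had no island. Sox9, which Paneth cells of the intestinal crypt need to form, lies on chromosome 11 (112782210 to 112787757) with the nearest island 331.8 kb away. Sox8 (chromosome 17, 25565893 to 25570686) had an island 8.12 kb from it, which was assigned to Lmf1 because it covers an end of that gene (25578801 to 25580000). It had 33 peak-side and 59 control-side reads, a fold of 1.62 (1.03 to 2.53) and an FDR of 0.00590 in the authors' deposited table. For crypt epithelium and glia, which use group E genes, most markers had no island, while 55.2% of all protein-coding genes had one. Stroma was also listed as a Sox9 cell type, and 4 of its 8 markers had an island. Of 8 crypt epithelium markers 2 had an island, Epcam and Krt8, with 0 to 39 peak-side reads per gene. Of 8 markers of enteric glia and Schwann cells 3 had an island, with 0 to 23 peak-side reads per gene, Gfap and Erbb3 among them, and S100b and Sox10 were among those without.

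Over the 10 genes, the share with an island was close to that of genes in general. It was 5 of 10, beside 55.2% of 21887 protein-coding genes assigned by the same rule. Of the 10 genes, 7 are shorter than 10 kb, a class in which 38.5% of genes had an island, and 3 of these 7 had an island (Sox4, Sox12 and Sox7). Sox5 and Sox6 belong to the 227 genes of 500 kb or more, of which 39.6% had an island. Sox13, of 42.2 kb and without an island, belongs to the genes of 10 to 100 kb, of which 65% had one. Of the 8 islands, 6 (75%) were called, beside the 82.3% of all islands. At an FDR under 0.01 it was 5 of 8, beside 64.2%, and with a fold over 2 as well as an FDR under 0.05 it was 4 of 8, beside 50.4%. Their median fold was 2.27, beside 2.01 over all islands, and their pooled fold, which the read-rich islands of Sox4 and Sox12 weigh most, was 1.61 (1.31 to 1.97). With a factor taken from the island totals of both sides in place of 0.345, the pooled fold was 0.842, the median fold was 1.19 and none of the 8 islands was called, beside 9.19% of all islands, so the level of the folds and the calls rest on the scaling. The median fold was 1.12 over the 3 islands with at least 20 peak-side reads, beside 1.91 over all such islands. The 4 gene-end islands had a median fold of 2.16, beside 1.86 over all 9233 gene-end islands.

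**Figure D3:**
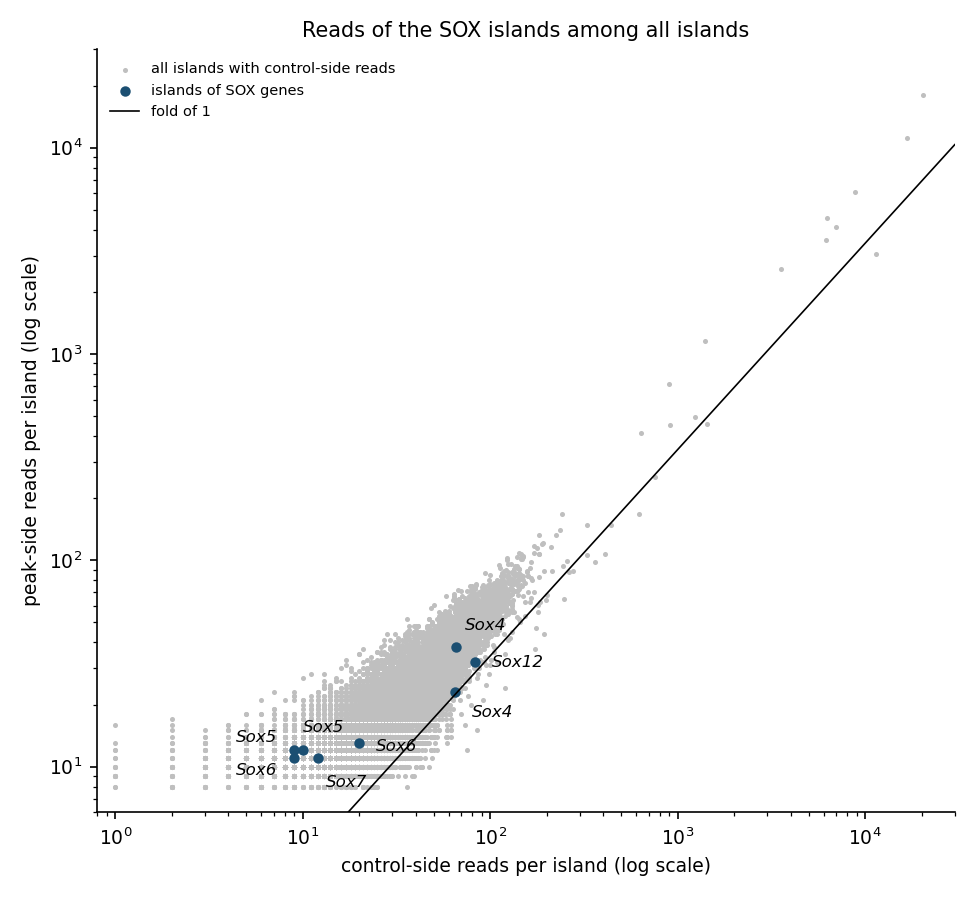
Peak-side reads (y axis) against control-side reads (x axis) per island, both on log scales, for the islands of SOX genes (dark) and all islands with at least a control-side read (grey), with a line at a fold of 1. The 5 islands of Sox5, Sox6 and Sox7 lie at 11 to 13 peak-side reads near the low edge of the table, and the upstream Sox4 island and the Sox12 island lie close to the line.

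Promoter windows were compared with the islands through their CpG content. The RefSeq table held 12 windows for 7 of the 10 genes (6 of them for Sox6), with none for Sox7, Sox9 and Sox18. Of the 12 windows, those of Sox4 and Sox12 overlapped an island, beside 33.7% of 32851 windows in the whole table. Windows over an island had a median of 18 CpG (interquartile range 12 to 25) and windows without an island had a median of 3 (1 to 6). The Sox12 window held 35 CpG, more than 97.0% of all windows, and the Sox4 window held 11. Sox13, with 31 CpG, had no island, although 79.4% of windows with 20 CpG or more overlapped one. Sox8 and Sox11, with 18 and 17 CpG, had no island either and fall with Sox4 in the class of 10 to 19 CpG, of which 67.1% overlapped one. The windows of Sox5 and the 4 deepest windows of Sox6 held 1 to 3 CpG, in the class of 0 to 4 in which 4.33% overlapped an island. The 2 windows of Sox6 nearest its start, with 9 and 10 CpG, lay 1.21 and 1.70 kb from an island.

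**Figure D4:**
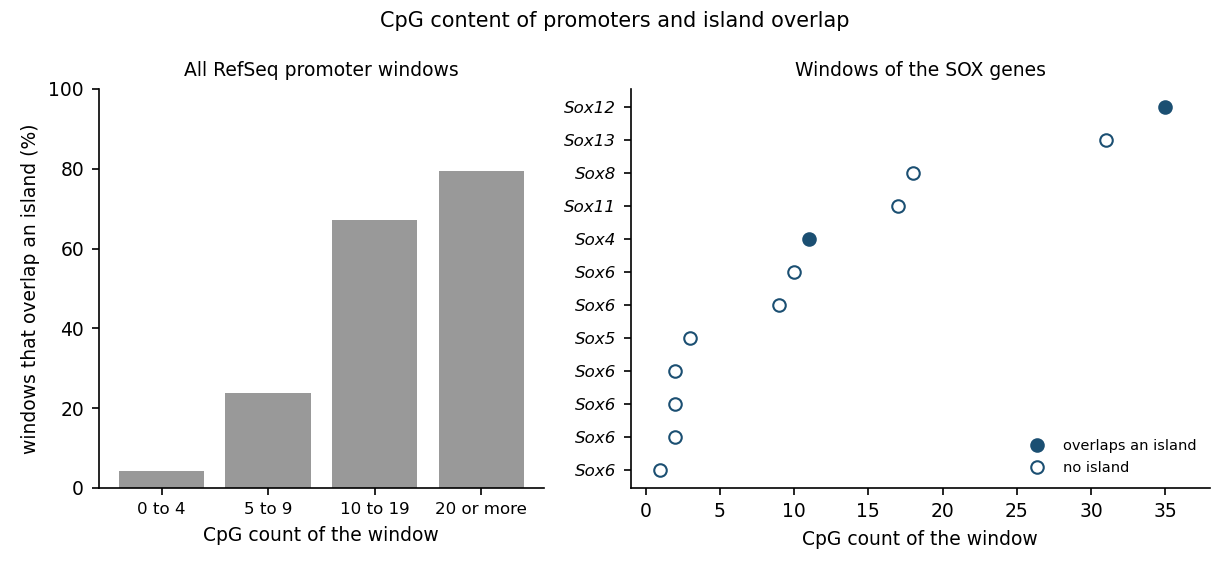
Left, share of all RefSeq promoter windows (250 bases before the start) that overlap an island, by CpG count of the window; right, CpG count of each window of the SOX genes, filled where the window overlaps an island. The share is 4.33%, 23.9%, 67.1% and 79.4% over the 4 classes, and among the 4 SOX windows with the most CpG only that of Sox12 overlaps an island.

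Short words were searched in the same windows on both strands. They were ACAATG and ACAAAG, cores that SOX factors bind, CTTTGA, a core of TCF-1 sites, and TGANTCA, the AP-1 word. ACAAAG and the complement of CTTTGA share 5 letters. Among windows over an island, 5.37% held ACAATG, 10.7% held ACAAAG and 9.97% held CTTTGA, beside 10.7%, 16.5% and 13.8% of all windows. None of these 3 words was in the windows of Sox4, Sox12, Sox11, Sox13 or Sox8. TGANTCA was in none of the 12 windows. Of the windows without an island, that of Sox5 held ACAATG, and 5 of the 6 Sox6 windows held ACAAAG. Some Sox6 windows also held ACAATG or CTTTGA. Among all windows with no island, 13.4% held ACAATG, 19.4% held ACAAAG and 15.8% held CTTTGA.

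Other genes of the family and pathway were taken from fixed lists. Of 10 further SOX genes, 4 had an island, each called in the authors' deposited table: Sox21 (18 peak-side and 19 control-side reads), Sox1 (14 peak-side and 16 control-side reads), Sox30 (14 peak-side and 19 control-side reads) and Sox17, the third gene of group F (11 peak-side and 16 control-side reads, fold 1.99, 0.837 to 4.58). Sox2, Sox3, Sox10, Sox14, Sox15 and Sry had none. Of 11 other HMG-box factor genes, 10 had an island, beside 55.2% of all protein-coding genes. They held 593 peak-side reads in all, or 53.9 per gene of the list. The 10 further SOX genes held 57 in all, or 5.70 per gene, and the 10 SOX genes described here held 152 in all. Cic had 127 peak-side and 232 control-side reads, Tcf7 had 102 peak-side and 110 control-side reads over 6 islands (pooled fold 2.69, 2.03 to 3.55), Tox2 had 81 peak-side and 65 control-side reads, and Tox and Hbp1 had 54 peak-side reads each. Tox3 had no island.

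Genes around SOX function in IL-17-producing lymphocytes also had islands. Of 12 genes of the IL-17 programme, 11 had an island and 9 a called one, led by Il1r1 (129 peak-side and 103 control-side reads, pooled fold 3.63, 2.78 to 4.75), Blk (115 peak-side and 141 control-side reads) and Zbtb16 (77 peak-side and 98 control-side reads). Of 12 genes of SOX partners and TGF-beta input, a signal that induces Sox4 in mouse T cells, all 12 had an island and 11 a called one. They were led by Smad3 (184 peak-side and 258 control-side reads over 9 islands), Pou2f1 (120 peak-side and 211 control-side reads), Tgfbr2 (111 peak-side and 113 control-side reads) and Usp9x (75 peak-side and 95 control-side reads). Of all protein-coding genes 55.2% had an island, and the share with a called island is not given here. These 2 lists hold 32 and 38 islands, of which 25 and 34 were called, beside 82.3% of all islands. Their median folds were 2.53 and 2.19, beside 2.27 for the 8 islands of the SOX genes and 2.01 over all islands.

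Marker lists of other cells had fewer genes with an island than the LTi list. They had 4 of 8 for stroma, 2 of the 9 T cell symbols that matched and 4 of 8 for B cells. Over all protein-coding genes the share was 55.2%, and the stroma and B cell lists were near it at 50% each. Called islands were at Cd3d and Lck of the T cell list and at Cd79b, Pax5, Ebf1 and Blk of the B cell list. Among the others, Cd3e, Cd3g and Ms4a1 had none. Summed peak-side reads per gene were 65.7 for the LTi list, 20.5 for B cells, 15.4 for stroma, 12.1 for endothelium, 7.5 for glia, 6.5 for crypt epithelium and 5.89 for T cells. The gene with the most reads held 115 of 164 for B cells (Blk), 68 of 123 for stroma and 41 of 121 for endothelium. It held 23 of 60 for glia, 39 of 52 for crypt epithelium, 36 of 53 for T cells and 157 of 920 for the LTi list. Among the genes that stand in 2 lists, Il7r, Il23r, Ccr6 and Il1r1 are in the LTi list and the IL-17 programme, and Blk is in the IL-17 programme and the B cell list.

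**Figure D5:**
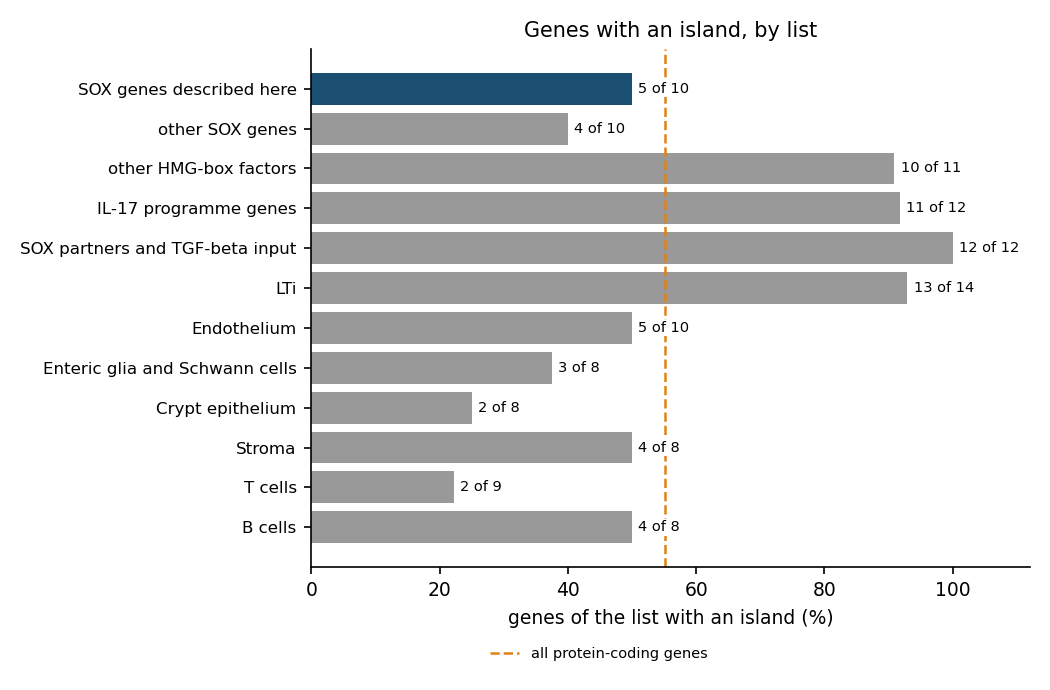
Share of genes with an island (x axis, %) for the 10 SOX genes (dark) and for each fixed list (grey), with the number of genes beside each bar and a dashed line at 55.2% for all protein-coding genes. The SOX genes described here (5 of 10) and the further SOX genes (4 of 10) lie left of the line, and the other HMG-box factors (10 of 11) lie right of it.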

How the data were processed

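The 2 Tcf7-KO and 2 control DNase-seq libraries were represented by 1 deposited table of islands. Alignment and island calling named Bowtie2 2.4.2, SICER 2.0 and build mm10, per the submitters' processing notes. The authors deposited raw read counts per island on each side, a p-value and an FDR, and a fold (the ratio of peak-side to scaled control-side reads). In all 16573 islands with control-side reads, the deposited fold gave the same factor, 0.345 (relative tolerance 1e-05), and the deposited p-values were matched by a Poisson upper tail in all 16584 islands.

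Islands were assigned with Python 3.11.15, pandas 2.3.3 and scipy 1.17.1 to 21887 protein-coding genes of a RefSeq table of GRCm38.p6, as was checked on simulated islands. A gene-end island lies within 1 kb of an end. Promoter windows were read from RefSeq for the same assembly, and in 778 of 778 overlapping pairs from opposite strands the sequences were reverse complements. Without molecular identifiers, reads need not stem from separate molecules. The library depth is not stated in these sources.

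No column is tied to a library, so the planned count model of genotypes was not run. Every island of every member was described, and in each other list up to 4 genes with the most peak-side reads, ties included, plus Tcf7. Some genes and a searched word are not reported here. The members and lists were chosen with earlier results of these data known. Alternatives were other assignments, a minimum of 20 reads, another scaling and other call rules.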

Additional observations from a re-analysis of the deposited data

How the results depend on the processing

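Of 25 values recomputed under other settings, 19 stayed within the counting interval (pooled fold and share called), the range of the island folds (median fold) or 1.5 times the count. That range is wide, and these 19 include a median fold of 1.12 with at least 20 peak-side reads and of 1.19 under the other scaling, both lower than 2.27 by more than 1.5 times. With at least 20 peak-side reads, 3 islands of 2 genes (Sox4 and Sox12) were left, with a pooled fold of 1.26 in place of 1.61 and 33.3% called in place of 75%, since this setting keeps the 3 islands of group C. With the control side scaled by the reads in all islands, the pooled fold was 0.842, below 1, and 0% of the SOX islands were called, beside 9.19% of all islands. This gives the reads of all islands a pooled fold of 1 by construction, and it moves each fold by the same ratio, so the order of the islands is kept. Sox5 then had folds of 1.82 and 2.02, and the upstream Sox4 and the Sox12 islands had folds of 0.537 and 0.585. Assignment within 10 kb and without a limit on distance gave the same 8 islands and 5 genes. Gene bodies with 1 kb around them gave 7 islands, without the upstream Sox4 island, and a pooled fold of 1.79. An FDR under 0.01 left 62.5% called (64.2% of all islands), and a fold over 2 in addition to the FDR left 50% (50.4% of all islands).

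No paired analysis was possible because neither read column carries a replicate number, and the genotype comparison, its replicate block and its leave-one-out fits were not run. At 11 to 13 peak-side reads, intervals span several-fold, so differences among the Sox5, Sox6 and Sox7 islands were not detectable at this depth.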
